A study of Mus musculus with 4 samples.

Results

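The 5 FGF receptor genes Fgfr1, Fgfr2, Fgfr3, Fgfr4 and Fgfrl1 and the 3 FGF ligand genes Fgf9, Fgf10 and Fgf18 were examined, which are 8 of the 21757 protein-coding genes of the GRCm39 annotation. For each gene, the peak intervals of H3K27ac, a histone acetylation of active promoters and enhancers, were collected over the transcript and up to 150 kb on each side of its start site, which came to 300 kb per gene. An interval was assigned to the gene's own promoter when it overlapped -2 kb to +500 bp of any of its start sites, and was distal when it lay outside such windows of every protein-coding gene. The 8 windows held 105 of 40899 intervals of the limb EGFP+ list, 65 of 34360 of limb EGFP-, 95 of 36231 of trunk EGFP+ and 54 of 30716 of trunk EGFP-.

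The study mapped H3K27ac by ChIP-seq in chondrocytes of the fetal limb and axial skeleton. All fetuses were E14.5 and carried the genotype Col2a1-EGFP on the G4 background. In this homozygous allele a minimal beta-globin promoter and EGFP stand upstream of Col2a1, so EGFP follows the regulatory input of the collagen II gene. The fetuses were male, came from 1 embryonic stem cell clone by tetraploid aggregation, and received no treatment named in the sources. Fore- and hindlimbs, and trunks freed of internal organs, were pooled over fetuses and sorted by FACS. The 4 populations were limb EGFP+, limb EGFP-, trunk EGFP+ and trunk EGFP-, with 1 library each. The peak names of the trunk EGFP- list carry the mark Rep2 although its label gives replicate 1. The sources name 2 sonicators and 2 read lengths and do not say which library had which. The EGFP- fractions hold the other cell types of the tissue, so fewer cells that carry a mark and less of the mark per cell cannot be told apart.

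FGF receptors are cell-surface tyrosine kinases that bind FGF ligands together with heparan sulphate and signal mainly through the adaptor Frs2 and the MAP kinase cascade. In the growth plate Fgfr3 is the receptor of proliferating and pre-hypertrophic chondrocytes and restrains bone growth, and activating mutations of it cause achondroplasia. Fgf9 and Fgf18 reach cartilage from the surrounding mesenchyme and perichondrium, whereas limb mesenchyme makes Fgf10 as a signal to the epithelium.

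With 1 library per population no test between populations was possible, and no value has a replicate error. The read number at each summit and its local background were recovered from the deposited fold and -log10 p, and the ranges given with read numbers are exact 95% Poisson intervals that cover counting error only. The median summit held 26 to 29 reads, and the weakest summit called held 7 or 8. As a check of the labels, 10 of 10 chondrocyte markers had a promoter interval in both EGFP+ lists and 3 in each EGFP- list, and their windows summed to 157, 32, 127 and 21 distal intervals in limb EGFP+, limb EGFP-, trunk EGFP+ and trunk EGFP- cells. Muscle, epithelial, endothelial, blood and neural markers had at most 1 promoter interval per list and type, in EGFP- cells too. The only one of muscle was in limb EGFP+ cells. Connective tissue markers had 4 or 5 of 6 in every list. Distal intervals of these types were not always more numerous in EGFP- cells. In the order above, neural markers had 14, 4, 12 and 6, muscle 16, 12, 5 and 9, and epithelium 6, 22, 9 and 14. Endothelium had 5, 14, 7 and 6, blood 3, 4, 5 and 6, and connective tissue 35, 56, 38 and 32. The part of cell makeup in the results below was not tested. Limb and trunk libraries were also named with different sequencing lanes, and an effect of the lane cannot be told apart from one of the tissue.

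The 5 sequences below are the 300 bp around the summit of distal regions on which the results turn, read from the plus strand of GRCm39. They are the strongest region of Fgfr3 and the one nearest to its start site, regions of Fgfrl1 and Fgfr4 called in EGFP+ cells alone, and the strongest region of Fgf10. Distances in kb run from the start site of the gene, with a minus sign for upstream. Capitals mark matches, on either strand, to the SOX half-sites ACAAAG and ACAATG and to the forkhead motif TGTTTAC, and no matches overlapped. The RUNX motif TGTGGT and the AP-1 motif TGANTCA were also searched and had no match in these 5 windows.
Fgfr3 -28.7 kb, chr5:33850188-33850487: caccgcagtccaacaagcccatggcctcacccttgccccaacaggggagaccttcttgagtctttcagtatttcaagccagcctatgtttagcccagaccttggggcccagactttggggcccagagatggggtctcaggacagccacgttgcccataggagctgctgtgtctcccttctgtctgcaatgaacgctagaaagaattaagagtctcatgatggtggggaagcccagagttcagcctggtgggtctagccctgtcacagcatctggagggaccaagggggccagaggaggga
Fgfr3 -4.47 kb, chr5:33874432-33874731: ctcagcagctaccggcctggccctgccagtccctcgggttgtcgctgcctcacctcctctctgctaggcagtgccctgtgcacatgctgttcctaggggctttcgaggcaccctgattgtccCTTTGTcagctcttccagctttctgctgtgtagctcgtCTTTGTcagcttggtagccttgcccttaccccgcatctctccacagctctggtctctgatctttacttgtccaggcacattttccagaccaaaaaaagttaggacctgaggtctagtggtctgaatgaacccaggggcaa
Fgfrl1 32.3 kb, chr5:108874382-108874681: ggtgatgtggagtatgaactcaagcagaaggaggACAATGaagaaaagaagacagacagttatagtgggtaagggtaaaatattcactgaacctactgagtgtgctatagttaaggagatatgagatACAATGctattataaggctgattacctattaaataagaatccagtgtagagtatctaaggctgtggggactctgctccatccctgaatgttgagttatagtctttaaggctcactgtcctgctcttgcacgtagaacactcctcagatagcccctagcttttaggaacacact
Fgfr4 -3.45 kb, chr13:55296817-55297116: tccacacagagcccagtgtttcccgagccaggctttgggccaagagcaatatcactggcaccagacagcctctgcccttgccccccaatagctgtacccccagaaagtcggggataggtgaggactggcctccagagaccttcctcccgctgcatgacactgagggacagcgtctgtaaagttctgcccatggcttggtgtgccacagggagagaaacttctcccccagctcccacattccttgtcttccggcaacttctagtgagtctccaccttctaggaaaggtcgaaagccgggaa
Fgf10 17.9 kb, chr13:118868829-118869128: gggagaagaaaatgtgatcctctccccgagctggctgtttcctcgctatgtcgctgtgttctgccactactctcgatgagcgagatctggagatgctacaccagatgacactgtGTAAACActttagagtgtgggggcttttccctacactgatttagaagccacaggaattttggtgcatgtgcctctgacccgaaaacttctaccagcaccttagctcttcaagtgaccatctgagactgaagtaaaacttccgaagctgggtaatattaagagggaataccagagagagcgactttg

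The motif shares around the 8 genes are given beside those of all distal windows as a description, with no test. ACAAAG was present in 18% of the 61 distal windows of the 8 genes in limb EGFP+ cells and in 24.3% of all 22833 distal windows of that list. For ACAATG the shares were 4.92% and 12.1%, for TGANTCA 6.56% and 8.21%, for TGTGGT 26.2% and 20.3%, and for TGTTTAC they were 8.2% and 4.24%. In trunk EGFP+ cells TGTTTAC was present in 3.28% of the windows of the 8 genes and in 4.23% of all, so its order turned between the tissues. That turn rests on few windows, 5 of 61 in the limb and 2 of 61 in the trunk. The median GC content of the limb EGFP+ windows was 51.7% around the 8 genes and 49.3% over all. At Fgfr3, ACAAAG was present in 2 of 11 distal windows in limb EGFP+ cells and in 2 of 9 in trunk EGFP+ cells. A match is a description of letters, and its absence says nothing of the factor.

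At least 1 distal interval was found for 7 of the 8 genes in limb EGFP+, 6 in limb EGFP-, 8 in trunk EGFP+ and 6 in trunk EGFP- cells, against 72.6%, 72.7%, 71.7% and 68.9% of all genes. Distal H3K27ac intervals around the receptor genes were more numerous in EGFP+ than in EGFP- cells, and Fgf10 had the opposite order. The numbers were close at Fgfr1 in the limb, with 16 against 15, and at Fgf10 in the trunk, with 1 against 2. The 8 genes together had 61 distal intervals in limb EGFP+, 34 in limb EGFP-, 61 in trunk EGFP+ and 24 in trunk EGFP- cells. Their median was 6, 3.5, 6 and 2 in the same order, against 2 over all genes in every list. In the limb, 5 of 8 genes had more distal intervals in EGFP+ than in EGFP- cells, against 40.7% of all genes, and 1 had fewer, against 26.7%. In the trunk, 7 of 8 had more, against 41.3%, and 1 had fewer, against 23.3%. In both tissues 5 of 8 had more, namely Fgfr1, Fgfr2, Fgfr3, Fgfr4 and Fgfrl1, against 26.1% of all genes, and Fgf10 alone of the 8 had fewer in both, against 11.1%. The EGFP+ lists are longer than the EGFP- lists, and these shares over all genes carry that difference as well.

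**Figure D1:**
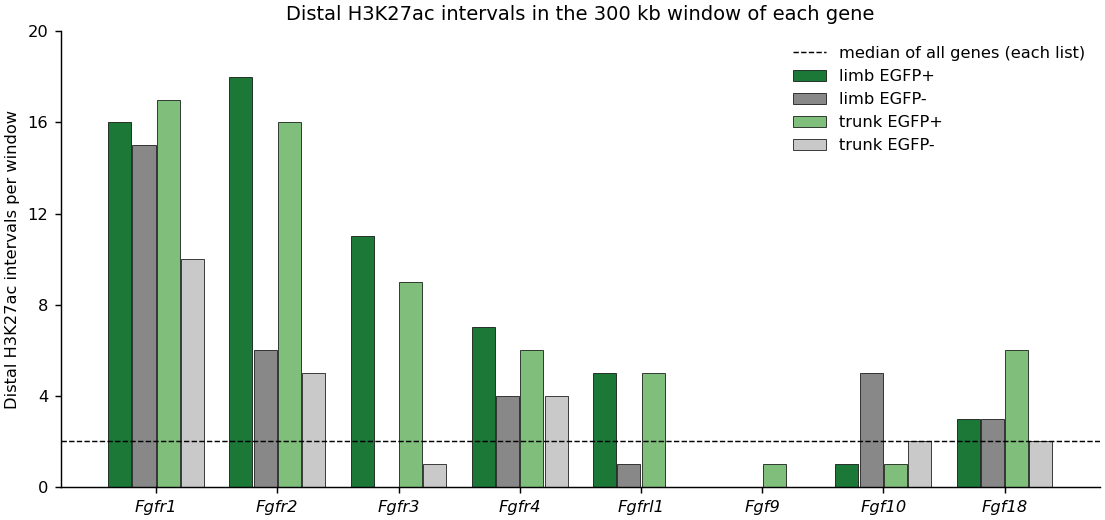
Number of distal H3K27ac intervals (y axis, count per 300 kb window) for each of the 8 genes (x axis) in the 4 libraries (bars, 1 library each, no error bars). The dashed line is the median of 2 over all 21757 genes in each list, and the bars of Fgfr3 reach 11 and 9 in EGFP+ cells against 0 and 1 in EGFP- cells.

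Fgfr3 (chr5:33879067-33894412, plus strand) carried its H3K27ac intervals almost wholly in EGFP+ cells. Its window held 11 distal intervals in limb EGFP+, 0 in limb EGFP-, 9 in trunk EGFP+ and 1 in trunk EGFP- cells. A count as high in both EGFP+ lists and as low in both EGFP- lists was found for 6 of 21757 genes, Fgfr3 included (0.0276%), with the limits taken from Fgfr3 itself. With so few EGFP- intervals, no distal EGFP+ interval of Fgfr3 had an overlapping EGFP- interval. The split depended on the measure of strength. With a fold of at least 4 over the local background, Fgfr3 had 0 more distal intervals in EGFP+ than in EGFP- cells in either tissue. Over 12 values per tissue, the reported one included, this difference was above 0 in 10 in the limb and in 10 in the trunk.

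The promoter of Fgfr3 followed the same order. Its strongest own-promoter interval had 80 summit reads (63.4 to 99.6) in limb EGFP+ and 58 (44 to 75) in trunk EGFP+ cells, and no interval was called in either EGFP- list. By -log10 p these intervals stood at the 82.1 and 73.6 percentile of their lists, and they were 872 and 325 bp wide. Over all genes with an own-promoter interval, the median percentile was higher, at 85.5 and 84.3 in these lists. In all, 4 own-promoter intervals covered 1749 bp in limb EGFP+ cells, and 3 covered 1288 bp in trunk EGFP+ cells. A promoter interval in both EGFP+ lists and in neither EGFP- list was found for 2 of the 8 genes, Fgfr3 and Fgfrl1, and for 1.44% of all genes, and the reverse for 0 of 8 and 0.777%. A promoter without an interval may still carry acetylation below the calling threshold.

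The distal intervals of the 4 lists around Fgfr3 merged, where they overlapped, into 14 regions. Of these, 13 were called in EGFP+ cells alone (92.9%), against 46.2% of all 43885 regions merged in this way. Neighbouring pieces that did not overlap count separately here. Of the 14, 12 lay upstream, between -93.3 and -4.47 kb, and none lay in the 15.3 kb transcript. The strongest was at -28.7 kb, in intergenic sequence, with 95 reads (76.9 to 116) in limb EGFP+ and 53 (39.7 to 69.3) in trunk EGFP+ cells. Its -log10 p was 27.4 and 8.71, so it ranked at the 79.6 percentile of the limb list and at the 45.6 percentile of the trunk list. These ranks count promoter intervals too, and the median distal interval had a -log10 p of 7.27 and 6.8. It was flanked by weaker EGFP+ regions at -29.6 and -28.3 kb. The region closest to the start site, at -4.47 kb, had 34 reads (23.5 to 47.5) in limb and 36 (25.2 to 49.8) in trunk EGFP+ cells, a difference within counting error. The region at 60.4 kb, in intron 1 of Letm1, was the only one of the 14 shared with an EGFP- list. It had 35, 38 and 19 reads in limb EGFP+, trunk EGFP+ and trunk EGFP- cells, and no interval in limb EGFP- cells. The EGFP+ intervals there reached into a promoter window of Letm1, so they are not among the distal counts.

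Of the 14 regions, 6 had Fgfr3 as their nearest start site, and the other 8 were closer to Tmem129, Fam53a, Letm1 or Nsd2. The 6 neighbours with a start site in the window, Fam53a, Slbp, Tacc3, Tmem129, Letm1 and Nsd2, each had a promoter interval in all 4 lists, as 47% of all genes did. Their percentiles lay between 58.7 and 97.2 over the 4 lists. Counted only with intervals nearest to a start site of Fgfr3 itself, the distal intervals were 6 more in EGFP+ than in EGFP- cells in the limb and 4 more in the trunk. Among all genes outside the window, the promoter percentiles closest to those of Fgfr3 over the 4 lists were those of Itga10, Fxyd3, Agrn, Chadl and Col9a3, at Euclidean distances of 5.3 to 7.2 percentile points. Itga10 encodes a collagen-binding integrin subunit, Fxyd3 a regulator of the sodium pump, Agrn a heparan sulphate proteoglycan of basement membranes, Chadl a cartilage matrix protein and Col9a3 a chain of collagen IX. These genes were matched by their promoters alone. Itga10 had 7, 7, 6 and 6 distal intervals in limb EGFP+, limb EGFP-, trunk EGFP+ and trunk EGFP- cells. In the same order Fxyd3 had 12, 6, 12 and 5 and Agrn had 6, 3, 6 and 4. Chadl had 5, 2, 6 and 2, and Col9a3 had 8, 3, 5 and 4. Fxyd3, Agrn, Chadl and Col9a3 thus had more in EGFP+ cells of both tissues, but none had as few in EGFP- cells as Fgfr3.

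**Figure D2:**
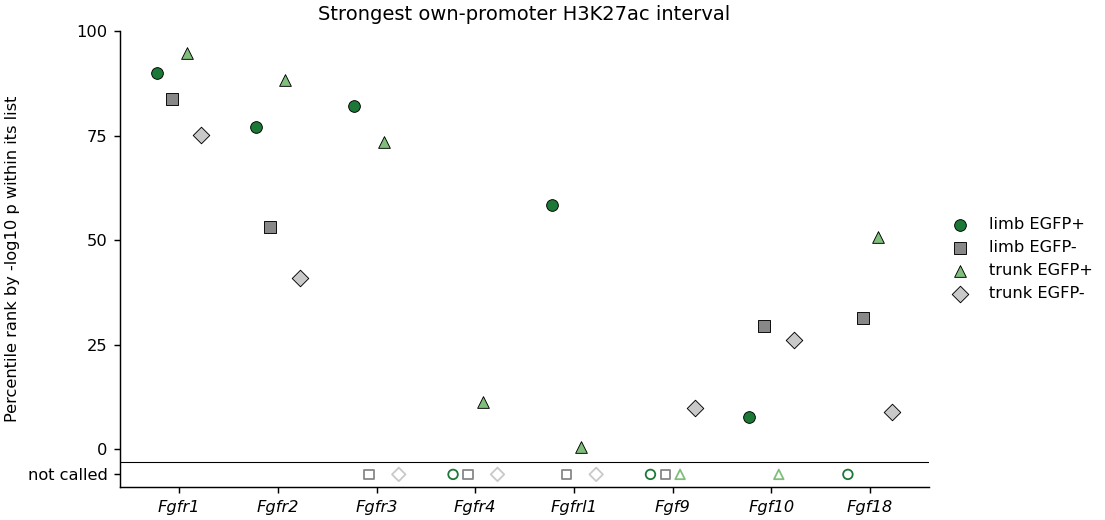
Percentile rank, by -log10 p within its own list, of the strongest own-promoter interval (y axis) of each gene (x axis) in the 4 libraries (symbols). Open symbols below the line mark lists in which no interval was called. Fgfr1 and Fgfr2 have 4 filled symbols, and Fgfr3 and Fgfrl1 are filled in EGFP+ cells alone.

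An own-promoter interval was called for 5 of the 8 genes in limb EGFP+, 4 in limb EGFP-, 6 in trunk EGFP+ and 5 in trunk EGFP- cells, against 53.9%, 51.1%, 52.1% and 52.2% of all genes. Fgfr1 and Fgfr2 were the 2 genes with an interval in all 4 lists, against 47% of all genes, and 0 of the 8 had none in any list, against 41.8%. An interval in EGFP+ and not in EGFP- cells was called for 2 of 8 in the limb, Fgfr3 and Fgfrl1, against 4.79% of all genes, and for 3 in the trunk, where Fgfr4 joined them, against 3.19%. The opposite was called for 1 of 8 in the limb, Fgf18, against 2%, and for 2 in the trunk, Fgf9 and Fgf10, against 3.3%. The values below are those of the strongest own-promoter interval of each list, which need not lie at the same start site in each. Its percentile is taken among promoter and distal intervals together. Over all genes with such an interval, the median was 85.5 in limb EGFP+, 82.8 in limb EGFP-, 84.3 in trunk EGFP+ and 81.1 in trunk EGFP- cells.

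Fgfr2 (chr7:129763471-129868272, minus strand), the receptor for Fgf10 in epithelium and a receptor of skeletal progenitors, had 18 distal intervals in limb EGFP+, 6 in limb EGFP-, 16 in trunk EGFP+ and 5 in trunk EGFP- cells. A count of at least 18 was found for 1.46% of all genes in the limb EGFP+ list, and a count of at least 6 for 17.8% in the limb EGFP- list. The strongest own-promoter interval had 98 reads (79.6 to 119) in limb EGFP+ and 26 (17 to 38.1) in limb EGFP- cells. In the trunk the values were 94 (76 to 115) and 29 (19.4 to 41.6). The strongest trunk EGFP- interval lay at another position, with its summit 2389 bp from the start site against 773 bp in trunk EGFP+ cells. Read numbers were higher in EGFP+ cells of both tissues by more than counting error, at folds over the local background of 3.45 (EGFP+) and 4.22 (EGFP-) for limb and 4.2 and 3.16 for trunk, and with percentiles of 77.2 against 53.2 and 88.4 against 40.9. Ranked by fold over the local background in place of -log10 p, the limb difference turned to -25.6 percentile points. With the start of the canonical transcript alone, the limb EGFP+ intervals fell outside the promoter window and the limb difference was -53.2.

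The distal regions of Fgfr2 lay within its transcript, mostly in introns, and on both sides of it. In the transcript, 14 merged regions lay between 42.1 and 102 kb, of which 10 were called in EGFP+ cells alone, 0 in EGFP- cells alone and 4 in both. Upstream, between -66.4 and -22.3 kb, 6 regions divided into 2 of EGFP+ cells alone, 1 of EGFP- cells alone and 3 of both. Downstream, the 3 regions between 123 and 137 kb were called in EGFP+ cells alone. Of all 23 regions of Fgfr2, 65.2% were called in EGFP+ cells alone, against 46.2% of all merged distal regions. The region at 61.3 kb in intron 6 had 65 reads (50.2 to 82.8) in limb EGFP+ and 32 (21.9 to 45.2) in trunk EGFP+ cells, and was not called in EGFP- cells. The region at 75.4 kb in intron 9 held intervals of all 4 lists, with 49, 15, 40 and 13 reads in limb EGFP+, limb EGFP-, trunk EGFP+ and trunk EGFP- cells at folds of 3.61, 3.57, 3.15 and 2.97. The trunk EGFP- interval there lay beside the limb intervals with these reads and did not overlap them. The upstream region at -32.5 kb had 11, 22, 13 and 16 reads in that order, with counting intervals that overlapped. That at -22.3 kb had 21, 18 and 26 reads in limb EGFP-, trunk EGFP+ and trunk EGFP- cells.

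**Figure D3:**
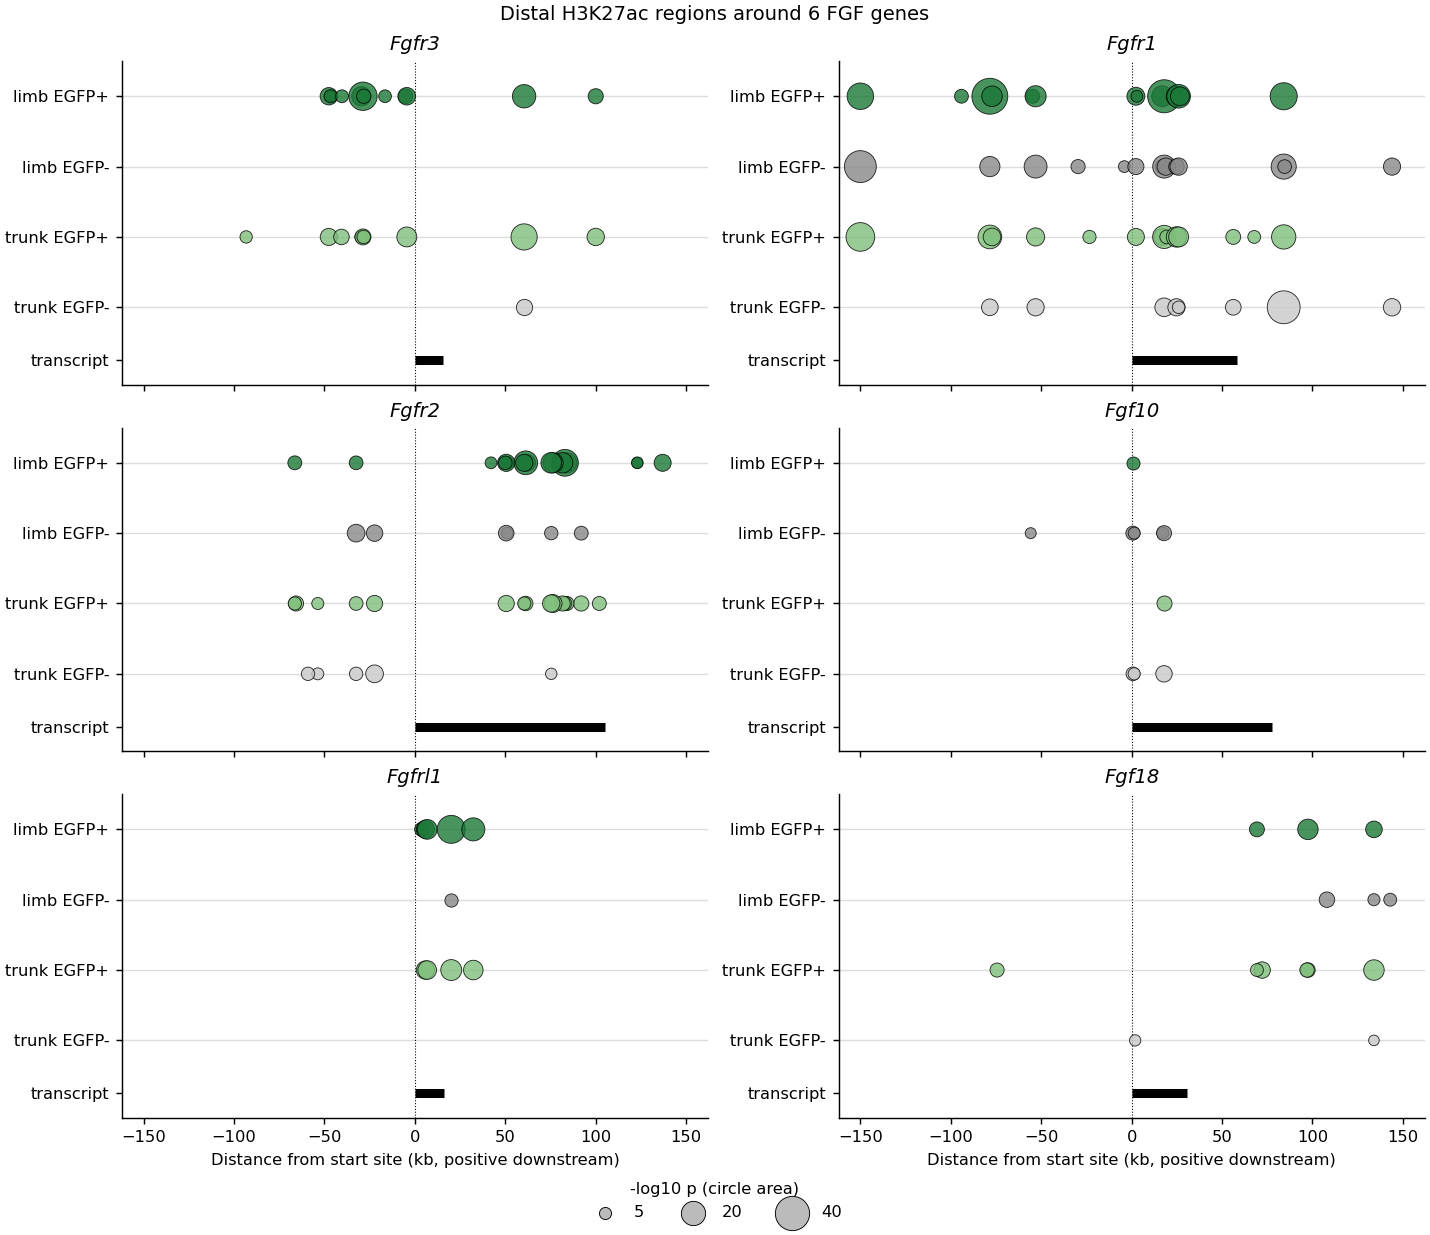
Merged distal H3K27ac regions around 6 genes, placed by the distance of their centre from the start site (x axis, kb, positive downstream) in the 4 libraries (rows). The area of a circle is proportional to -log10 p, and the black bar is the transcript. Circles include intervals that reach from a region into a promoter window. In the panel of Fgfr3 the EGFP- rows hold 1 circle, at 60.4 kb, whereas the circles of Fgfr1 fill all 4 rows and those of Fgf10 lie mostly in the EGFP- rows.

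Fgfr1 (chr8:26008745-26066824, plus strand), the receptor of perichondrium, mesenchyme and hypertrophic cartilage, was marked broadly in all 4 populations. It had 16, 15, 17 and 10 distal intervals in limb EGFP+, limb EGFP-, trunk EGFP+ and trunk EGFP- cells. Of 23 merged regions, 10 were shared between the fractions (43.5%), against 22.8% of all merged distal regions. Intervals of all 4 lists were found in 6 of the 23, against 4505 of all 43885. Its strongest own-promoter interval had 94 reads (76 to 115) in limb EGFP+, 60 (45.8 to 77.2) in limb EGFP-, 89 (71.5 to 110) in trunk EGFP+ and 51 (38 to 67.1) in trunk EGFP- cells. The counting intervals of the limb fractions overlapped slightly and those of the trunk fractions did not, although the trunk EGFP- interval had its summit 293 bp from the start site and the others between 1098 and 1190 bp. Ranked by fold, the limb difference was -2.05 percentile points, and at the canonical start alone the trunk difference was -11.5, so the order of the fractions at this promoter depended on the measure.

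The strongest distal region of Fgfr1 lay at -78.4 kb, with 98 reads (79.6 to 119) in limb EGFP+, 28 (18.6 to 40.5) in limb EGFP-, 58 (44 to 75) in trunk EGFP+ and 23 (14.6 to 34.5) in trunk EGFP- cells. The folds over the local background were 5.86 and 5.27 in the limb fractions and 4.04 and 4.14 in the trunk fractions, so the higher EGFP+ read numbers came with a higher background. The region at 18 kb in intron 2 had 94, 50, 61 and 38 reads in the same order. At the edge of the window, at -150 kb, 48, 51 and 42 reads were found in limb EGFP+, limb EGFP- and trunk EGFP+ cells and no interval in trunk EGFP- cells. The region at 84.1 kb overlapped an exon of Nsd3 and was strongest in trunk EGFP- cells, with 80 reads, against 69, 56 and 57 in limb EGFP+, limb EGFP- and trunk EGFP+ cells.

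Fgfrl1 (chr5:108842057-108858366, plus strand) encodes a receptor that binds FGF but lacks the kinase domain. It had 5, 1, 5 and 0 distal intervals in limb EGFP+, limb EGFP-, trunk EGFP+ and trunk EGFP- cells, and a promoter interval in EGFP+ cells alone. Its 5 merged regions all lay downstream of its start site and had it as the nearest start site. The region at 32.3 kb was called in EGFP+ cells alone, with 38 reads (26.9 to 52.2) in the limb and 32 (21.9 to 45.2) in the trunk. The region at 20.1 kb, 1553 bp wide, had 69 reads (53.7 to 87.3) in limb EGFP+, 14 (7.65 to 23.5) in limb EGFP- and 52 (38.8 to 68.2) in trunk EGFP+ cells, with the limb EGFP- summit at another position within it. In intron 2, the region at 6.8 kb had 85 reads (67.9 to 105) in limb EGFP+ and 75 (59 to 94) in trunk EGFP+ cells. The neighbours Tmem175, Gak, Dgkq, Idua and Slc26a1 each had a promoter interval in all 4 lists, and none of the other 4, Cplx1, Rnf212, Tmed11 and Vmn2r8, had one in any.

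The rank of Fgfrl1 depended on the local background. Its strongest own-promoter interval stood at the 58.5 percentile by -log10 p in limb EGFP+ cells and at the 0.664 percentile in trunk EGFP+ cells, although the summits held 81 and 49 reads, at the 91 and 78.2 percentile of their lists by read number. The local background that entered these p-values was 32 and 29.5 reads, at the 99.4 and 99.7 percentile, where the median interval had 4.96 and 5.22. At the strongest own-promoter interval of Fgfr2 in the limb and trunk EGFP+ lists the background stood at the 98.9 and 98.7 percentile, and for Fgfr3 it stood at 93.3 and 93.4. MACS2 takes this background from reads around the summit, so reads were dense around these summits as well as at them. With a fold of at least 4 over that background, the difference between the fractions in distal intervals of Fgfr2 was -2 in the limb.

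Fgfr4 (chr13:55300453-55316572, plus strand), a receptor best known from liver and muscle, had its only own-promoter interval in trunk EGFP+ cells, with 17 reads (9.9 to 27.2) at the 11.3 percentile. It had 7, 4, 6 and 4 distal intervals in limb EGFP+, limb EGFP-, trunk EGFP+ and trunk EGFP- cells. The strongest, at 37.2 kb, had 86, 101, 76 and 72 reads in the same order, was called in all 4 lists and was closest to the start site of Nsd1. Next to it, the region at 38.1 kb had 62, 51, 41 and 42 reads, and that at 29.9 kb had 29, 37, 33 and 34, both also in all 4 lists. The region at -3.45 kb was called in EGFP+ cells alone, with 49 reads (36.3 to 64.8) in the limb and 27 (17.8 to 39.3) in the trunk. A weaker EGFP+ region next to it, at -3.91 kb, had 23 reads in each tissue.

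The ligand genes had no own-promoter interval above the 50.9 percentile of a list. Fgf10 (chr13:118850915-118928672, plus strand) had 1, 5, 1 and 2 distal intervals in limb EGFP+, limb EGFP-, trunk EGFP+ and trunk EGFP- cells. None of its 5 merged regions was called in EGFP+ cells alone, against 46.2% of all merged distal regions. Its strongest region, at 17.9 kb in intron 1, had 15 reads (8.4 to 24.7) in limb EGFP-, 12 (6.2 to 21) in trunk EGFP+ and 18 (10.7 to 28.4) in trunk EGFP- cells, which overlap. A region at 1.44 kb was called in both EGFP- lists, with 19 reads in the limb and 17 in the trunk. The region at 0.677 kb, which overlapped an exon, was distal in limb EGFP+ cells, with 13 reads, and overlapped the own-promoter intervals of both EGFP- lists. The own promoter of Fgf10 had 11 reads (5.49 to 19.7) in limb EGFP+, 22 (13.8 to 33.3) in limb EGFP- and 19 (11.4 to 29.7) in trunk EGFP- cells, and no interval in trunk EGFP+ cells. The counting intervals of the limb fractions overlapped, and ranked by fold the limb difference turned to 6.05 percentile points in favour of EGFP+ cells.

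Fgf18 (chr11:33067014-33097828, minus strand), which is needed for normal chondrocyte proliferation and maturation, had its distal regions mostly downstream of the transcript. It had 3, 3, 6 and 2 distal intervals in limb EGFP+, limb EGFP-, trunk EGFP+ and trunk EGFP- cells, and 7 of its 9 merged regions lay between 69.3 and 143 kb. The region at 134 kb was called in all 4 lists, with 17, 12, 25 and 10 reads and counting intervals that overlapped within each tissue. The region at 72.2 kb had 26 reads (17 to 38.1) and was called in trunk EGFP+ cells alone, and those at 108 and 143 kb, with 14 and 13 reads, were called in limb EGFP- cells alone. In windows cut to 50 kb around the start site these regions were lost, and the trunk difference in distal intervals was -1.

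The promoter of Fgf18 had 18 reads (10.7 to 28.4) in limb EGFP-, 21 (13 to 32.1) in trunk EGFP+ and 15 (8.4 to 24.7) in trunk EGFP- cells, and no interval in limb EGFP+ cells. The counting intervals overlapped between the trunk fractions. Fgf9 (chr14:58309673-58350316, plus strand), a ligand of Fgfr3 in early cartilage, was the least marked of the 8 genes. Its only distal interval was in trunk EGFP+ cells, at -73.5 kb in intron 1 of Micu2, with 13 reads (6.92 to 22.2). Limb EGFP+ and limb EGFP- intervals with 20 and 12 reads overlapped it but reached into the promoter window of Micu2. Its only own-promoter interval was in trunk EGFP- cells, also with 13 reads (6.92 to 22.2). The promoter of the neighbour Micu2 was marked in all 4 lists.

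Of the distal intervals of the 8 genes, 39 of 61 in limb EGFP+ (63.9%), 14 of 34 in limb EGFP- (41.2%), 43 of 61 in trunk EGFP+ (70.5%) and 5 of 24 in trunk EGFP- (20.8%) were not overlapped by an interval of the opposite fraction, against 68.5%, 56.6%, 69.1% and 57.3% of all distal intervals of these lists. Such intervals were merged within 500 bp, and across tissues where they overlapped, into regions called positive-only for EGFP+ and negative-only for EGFP- cells. At least 1 positive-only region was found for 7 of the 8 genes, against 73.9% of all genes, and at least 1 negative-only region for 5, against 70%. The 8 genes had 45 positive-only and 15 negative-only regions, so 75% of these regions were positive-only, against 57.5% over the genome. By gene, the positive-only and negative-only numbers were 14 and 3 for Fgfr2, 11 and 5 for Fgfr1, 8 and 0 for Fgfr3, and 4 and 0 for Fgfrl1. They were 4 and 3 for Fgf18, 3 and 1 for Fgfr4, 1 and 0 for Fgf9, and 0 and 3 for Fgf10. Positive-only regions were thus the more numerous for 7 of 8 genes, against 44.7% of all genes, and the fewer for 1, against 26.4%. For Fgf9 this rests on 1 trunk region with 13 reads, nearest to the start site of Micu2.

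Limb and trunk shared a minority of these regions. Of the 45 positive-only regions, 14 were positive-only in both tissues (31.1%), 13 in the limb alone and 18 in the trunk alone, against 21% shared over the genome. Fgfr3 shared 4 of 8 between the tissues and Fgfr2 4 of 14, whereas Fgfr1 shared 1 of 11. Of the 15 negative-only regions, 2 were shared, 10 were found in the limb alone and 3 in the trunk alone, and the shared part was 13.3%, as it was over the genome. A region called in 1 tissue may lie just under the threshold in the other.

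**Figure D4:**
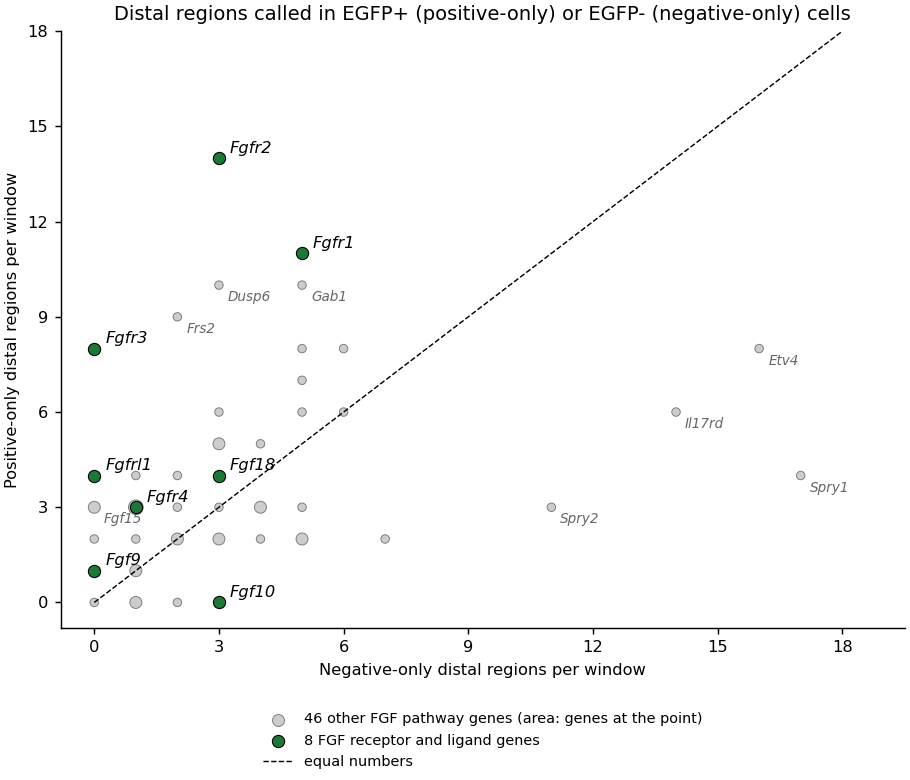
Positive-only (y axis) against negative-only distal regions (x axis) per 300 kb window, as counts, for the 8 genes (green) and 46 other genes of the FGF pathway (grey, with larger points where genes coincide). The dashed line marks equal numbers. Of the 8 genes, 7 lie above it and Fgf10 below it, and Spry1, Spry2, Il17rd and Etv4 lie far below it.

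Around other genes of the FGF pathway, EGFP+ and EGFP- cells had similar numbers of distal intervals. A list of 46 held 19 other FGF ligands, 7 co-receptors and binding proteins, 9 adaptors and effectors, and 11 feedback inhibitors and induced transcription factors. Their median number of distal intervals was 3.5, 4, 3 and 3 in limb EGFP+, limb EGFP-, trunk EGFP+ and trunk EGFP- cells. In the limb 20 of 46 had more in EGFP+ cells and 20 had fewer, and in the trunk 21 had more and 17 had fewer, where all genes had 40.7% and 26.7% in the limb and 41.3% and 23.3% in the trunk. A promoter interval was called in all 4 lists for 27 of the 46, among them the 9 adaptors and the 11 feedback genes, and in no list for 12, against 47% and 41.8% of all genes.

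The 4 largest and the 4 smallest differences between positive-only and negative-only regions were as follows. Frs2, the docking protein of activated FGF receptors, had 9 positive-only and 2 negative-only regions, and Gab1, which Frs2 recruits through Grb2, had 10 and 5. Dusp6, an FGF-induced phosphatase of ERK, had 10 and 3, and the ligand gene Fgf15 had 3 and 0. Fgf4, Fgf22, Flrt1 and Frs3 had the same difference as Fgf15, which is named for its place in the order of symbols. Spry1 and Spry2 encode Sprouty inhibitors of receptor tyrosine kinase signalling, and had 4 and 17 and 3 and 11 positive-only and negative-only regions. Il17rd, the membrane inhibitor Sef, had 6 and 14, and Etv4, an FGF-induced ETS factor, had 8 and 16. In distal intervals, Spry1 had 4, 16, 6 and 19 in limb EGFP+, limb EGFP-, trunk EGFP+ and trunk EGFP- cells, the reverse of the order at Fgfr3. Of the feedback genes, which lay at both ends, 6 of 11 had more positive-only and 5 more negative-only regions.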

How the data were processed

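H3K27ac ChIP-seq of 4 sorted populations, with 1 library each, was examined as peak lists. Per the methods, the authors sampled reads to similar numbers with Seqtk, trimmed with cutadapt 1.18, mapped with Bowtie2 2.3.5.1 to GRCm39, filtered with SAMtools and called peaks per library with MACS2 2.2.7.1, reads extended to 200 bp, with no control named. The deposited score is the authors' integer form of the -log10 q and was not used. The deposited fold is the ratio of summit pileup to local background. The deposited -log10 p and -log10 q come from the authors' MACS2 run, and the deposited summit offset is another column, in bp.

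Summits that share an interval were counted as 1, on chromosomes 1 to 19, X and Y, and ranked within a list by -log10 p. Genes, canonical transcripts and 67388 start sites came from the GENCODE annotation of GRCm39. The gene record of Fgfr2 holds a distant read-through transcript, so canonical transcripts set the windows. Summit reads were recovered for 100% of summits at a tolerance of 0.001. Motifs were searched on both strands in 300 bp windows. The calls were tested on simulated data. The members and lists were chosen with earlier results of these data known. Named regions are, per gene, the 3 strongest in EGFP+ and the 2 strongest in EGFP- lists by -log10 p, with others named after their values were seen. Of these, 1 region of Fgfr2 and 1 of Fgf18 are not reported here. Of the pathway genes, the 4 largest and the 4 smallest differences are named, with ties by symbol. Alternatives changed the window, the start sites, the thresholds, the overlap and the ranking. Python 3.11.15, pandas 2.3.3, numpy 2.4.6, scipy 1.17.1, pysam 0.24.0 and matplotlib 3.10.9 were used.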

Additional observations from a re-analysis of the deposited data

Results flagged for a closer look

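The own promoter of Fgf18 differed in direction between the tissues. Its percentile was 0 in limb EGFP+ cells, where no interval was called, and 31.4 in limb EGFP- cells, whereas the trunk fractions stood at 50.9 (EGFP+) and 8.95 (EGFP-). The limb order rests on the missing interval, and the read numbers of the trunk fractions, 21 and 15, overlapped within counting error. With a -log10 q of at least 5 the difference was 0 in the limb and 21.1 in the trunk, with a fold of at least 4 it was 0 and 21.7, and with the 20000 strongest intervals it was 0 and 11, so the opposite order was lost. The difference between the tissues was not tested, since each population has 1 library.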

How the results depend on the processing

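In 17 alternative settings 503 values were recomputed, and 16 of 399 differences between the fractions at single genes reversed. A further 42 differences in regions, 61 in distal intervals and 59 in promoter percentile did not reverse but changed clearly in size, or were lost or gained. With windows of 50 kb, the difference of Fgf18 was -1 in trunk distal intervals and -1 in positive-only minus negative-only regions, and the transcript alone gave the same values of -1 and -1. With windows of 500 kb, the difference in distal intervals was -2 for Fgfr1 in the limb and -2 for Fgfr4 in the trunk, and with summits in place of intervals it was -1 for Fgfr4 in the trunk. A fold of at least 4 gave -2 distal intervals, -1 region and -28 promoter percentile points for Fgfr2 in the limb. Ranked by fold, the limb promoter difference was -2.05 for Fgfr1, -25.6 for Fgfr2 and 6.05 for Fgf10. At the 5' end of the gene record the trunk promoter difference of Fgfr2 was -3.13. At the canonical start alone, an alternative chosen after seeing the data, it was -11.5 for Fgfr1 in the trunk and -53.2 for Fgfr2 in the limb. The cause of these changes was not tested, apart from the windows, which hold fewer or more intervals.

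The mean number of distal intervals per gene, 7.62, 4.25, 7.62 and 3 in limb EGFP+, limb EGFP-, trunk EGFP+ and trunk EGFP- cells, became 18.1, 12.4, 16.9 and 8.38 with 500 kb, 3.25, 1.88, 2.88 and 1.12 in the transcripts alone, 2.5, 2.12, 2.25 and 1.25 with a fold of at least 4, and 3.88, 2.12, 4 and 1.75 with the 20000 strongest intervals per list. Windows of 50 kb left 1.88 in trunk EGFP- cells. A -log10 q of at least 5 left 2.38 in limb EGFP-, 4.75 in trunk EGFP+ and 1.75 in trunk EGFP- cells. The gene record, also tried after seeing the data, gave 6.5, 12.4 and 5.38 in these 3 lists. Positive-only and negative-only regions became 28 and 9 with 50 kb, 117 and 58 with 500 kb, 16 and 5 in the transcripts, 27 and 7 with the q filter, 14 and 7 with the fold filter, 22 and 9 with 20000 intervals, and 82 and 34 with the gene record, so positive-only regions remained the larger number. Genes with a promoter interval became 2 in limb EGFP- and 2 in trunk EGFP- cells with the q filter or with 20000 intervals, 2, 2, 3 and 1 in the 4 lists with the fold filter, 2 in limb EGFP+, limb EGFP- and trunk EGFP- cells at the 5' end of the gene record, and 3 in limb EGFP+ cells at the canonical start. The region difference of Fgfrl1 was above 0 in 13 of 13 values, the reported one included, and that of Fgf10 between -3 and -1. That of Fgfr3 ranged from 0, in the transcript alone, to 11. That of Fgf9 was above 0 in 5 of 13 values and ranged from 0 to 2. No paired analysis was possible because each population has 1 library. At 1 library per population, a missing interval limits every presence call, since the weakest summit called held 7 or 8 reads.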
